A study of Rattus norvegicus with 20 samples.

Results

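The contralateral hemispheres described here are the uninjured sides of 10 female rat brains after controlled cortical impact, a model of traumatic brain injury in which a piston strikes the exposed cortex. They make up 10 of the 20 libraries measured. The other 10 come from the injured (ipsilateral) side of the same animals. The groups were chosen by a measured value, namely what the injured side of the same animal showed, so that 7 libraries lie opposite a strong response and 3 opposite a weak one. A response was called strong where the ipsilateral raw count of Lgals3 (galectin-3, a sugar-binding protein that activated phagocytes make) divided by that of Polr2a (a subunit of RNA polymerase II, used as a reference) was 0.1 or more. This ratio was 0.242, 0.323, 0.493, 0.545, 0.650, 0.781 and 0.854 in the strong animals 2, 12, 11, 4, 7, 8 and 6. It was 0.0276, 0.0286 and 0.0367 in the weak animals 10, 5 and 3. Ipsilateral Lgals3 therefore chose the groups and is given without a test, whereas no contralateral value was used for the choice. All animals carried the impact. Some were given L-myc immortalized neural stem cells of human origin through the nose and others vehicle, but the labels mark no animal's treatment. The split by response is not a group of the study, and whether it coincides with treatment was not tested. The labels give neither strain nor age nor time after injury, and there is no uninjured animal among the samples.

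RNA was counted on the NanoString nCounter, which tallies colour-barcoded probes on single RNA molecules and involves no amplification step. The total over 770 probes ranged from 57005 to 319964 in the contralateral libraries opposite strong responses, with a median of 95605, and from 34454 to 81699 opposite weak ones, with a median of 66754. These totals overlap between the groups (exact permutation test of the means, two-sided, p = 0.242, n = 7 against 3). The deepest 3 libraries, however, all lie opposite strong responses, and the shallowest lies opposite a weak one. Background was read from 8 negative control probes. They averaged 4.89 ± 1.43 counts opposite strong responses and 4.46 ± 0.31 opposite weak ones (SD, n = 7 and 3). Of the 750 endogenous genes, 193 had a mean raw count of at least 20 over all 20 libraries and were tested, 8 of them with a contralateral mean under 20. None of the 770 probe target accessions is among the rat RefSeq transcripts, although 705 of the 770 symbols are, so the panel was not designed on rat transcripts and a low count may also reflect probe match. Counts were scaled by 17 housekeeping genes, and levels below are scaled counts.

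Cortical contusion is known to activate microglia, the resident macrophages of the brain, and to draw blood-borne monocytes into the lesion. Activated phagocytes take up debris, express complement and lysosomal proteases and load antigen on class II molecules, whose assembly needs the invariant chain CD74. The hemisphere opposite a contusion is often used as an internal control, although it is linked to the lesion by commissural fibres, blood and cerebrospinal fluid. The comparison asks whether this side differs with the size of the response on the other side.

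Cd74, which encodes this invariant chain, was higher in the contralateral hemispheres opposite strong responses than in those opposite weak ones. It had 172, 72.0, 172, 222, 213, 393 and 246 scaled counts in the strong animals 2, 4, 6, 7, 8, 11 and 12, against 49.8, 41.6 and 27.0 in the weak animals 3, 5 and 10. Each of the 7 libraries opposite a strong response lay above all 3 opposite a weak one, with animal 4 closest to them. The means were 213 ± 97 and 39.5 ± 11.6 scaled counts (SD, n = 7 and 3), a 5.29-fold difference (log2 fold change 2.40 ± 0.42 SE, edgeR adjusted p = 0.00859). It was the single call among the 193 tested genes (0.518% of them), with 1 gene higher and 0 lower. At an unadjusted p under 0.05 there were 17 genes (8.81%), 16 higher and 1 lower, and DESeq2 called 2 genes, Cd74 and C4b. The call of Cd74 rests on each of the 3 weak animals: the edgeR adjusted p was 0.0595 without animal 3, 0.114 without animal 5 and 0.0705 without animal 10, at log2 fold changes of 2.58, 2.42 and 2.26. It was also lost with limma-voom, at adjusted p = 0.203 on these 10 libraries and 2.34 on the log2 scale.

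**Figure D1:**
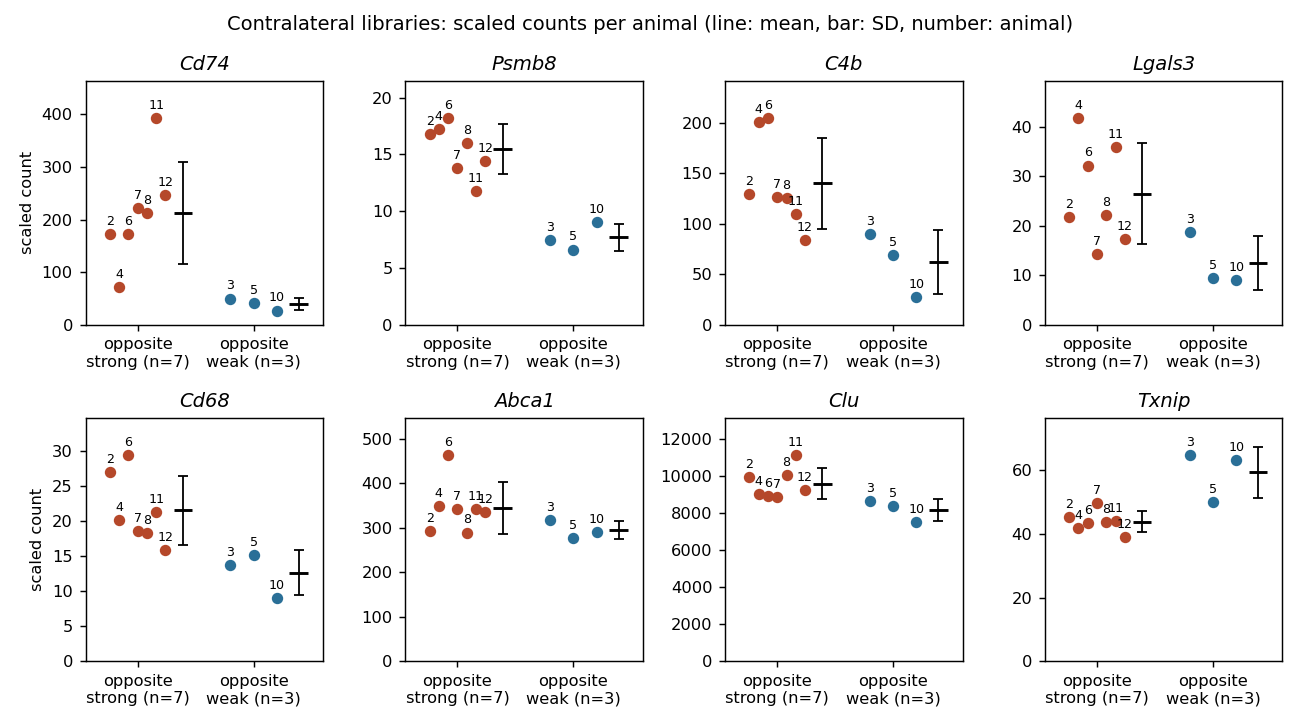
Scaled counts (vertical axes, from 0) of 8 genes in each contralateral library, opposite strong responses (left, 7 animals) and weak responses (right, 3 animals); horizontal lines with bars are means ± SD, and numbers name the animals. Cd74, Psmb8, Cd68 and Clu do not overlap between the groups and are higher opposite strong responses, Txnip does not overlap and is lower, and C4b, Lgals3 and Abca1 overlap.

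The difference in Cd74 was also present when only strong libraries under 100000 counts were kept. These strong animals, 2, 4, 6 and 12, had 172, 72.0, 172 and 246 scaled counts. The weak animals, with totals of 34454 to 81699, had 27.0 to 49.8. With these 7 libraries alone the log2 fold change was 2.02 (edgeR adjusted p = 0.0339). The raw counts of the weak animals, 40, 44 and 12, stood above their negative control means of 4.50, 4.13 and 4.75. Depth is still not matched in this subset. Weak animal 10 has the lowest Cd74 and the lowest total, 34454 against at least 57005 in the strong animals. The part of depth in the Cd74 result was not tested.

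**Figure D2:**
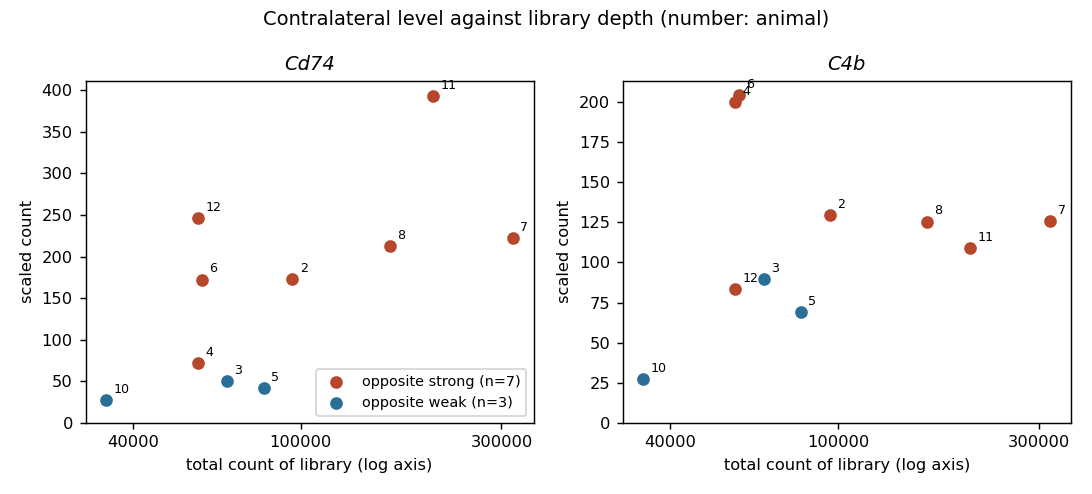
Scaled counts of Cd74 and C4b (vertical axes) against the total count of each contralateral library (horizontal log axes), with red points for the 7 strong and blue points for the 3 weak animals. At totals between 57005 and 95605 counts the strong animals have 72.0 to 246 scaled counts of Cd74, all above the weak animals.

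The other 2 tested genes of the antigen presentation list encode subunits of the immunoproteasome, the form of the proteasome that cuts peptides for class I molecules. Psmb8 had 11.8 to 18.2 scaled counts opposite strong responses (median 16.0), against 7.48, 6.62 and 9.01 in the weak animals 3, 5 and 10. The groups do not overlap, yet the difference did not pass (log2 fold change 1.0 ± 0.29 SE, edgeR adjusted p = 0.228). Psmb8 is among the 8 genes with a contralateral mean under 20 raw counts (19.5) and reached the minimum through the injured side, where it is higher. The weak animals had 6, 7 and 4 raw counts, the last below the negative control mean of 4.75 in that library. After subtraction of the negative controls Psmb8 passed the threshold (log2 fold change 2.09, edgeR adjusted p = 0.0158), but this fold is set against values at background. Psmb9 overlapped, with 18.5 ± 4.4 scaled counts opposite strong and 19.0 ± 4.3 opposite weak responses (SD, n = 7 and 3; log2 fold change -0.11 ± 0.28 SE, edgeR adjusted p = 0.920). In the antigen presentation list as a whole, 7 of 12 members were on the panel, 3 were tested and 1 was called. The list used rat symbols for class I and II genes, so H2-K1, a tested class I heavy chain, is not in it. H2-K1 had 21.5 ± 4.6 and 24.6 ± 6.1 scaled counts opposite strong and weak responses (SD, n = 7 and 3; log2 fold change -0.20 ± 0.24 SE, edgeR adjusted p = 0.909). Their median log2 fold change of 1.0 is the value of Psmb8, the middle of 3 members, and is no measure of the list. The median of all 193 tested genes was 0.06.

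C4b, a component of the classical complement pathway, had 83.5 to 204 scaled counts opposite strong responses (median 126), against 89.7, 69.1 and 27.0 in the weak animals 3, 5 and 10. Animal 12, at 83.5, lay below weak animal 3, while the other 6 strong animals lay above all weak ones. The difference did not pass in edgeR (log2 fold change 1.07 ± 0.31 SE, edgeR adjusted p = 0.228) but did with DESeq2 (1.12, DESeq2 adjusted p = 0.0139). It also passed in edgeR when all 750 endogenous genes were kept (1.07, edgeR adjusted p = 0.0178). Without weak animal 10, whose raw count was 12, the log2 fold change was 0.80, the lowest value when 1 animal was left out. The other tested complement gene, C3ar1, the receptor of the C3a fragment, had 14.8 ± 3.9 and 16.3 ± 4.0 scaled counts opposite strong and weak responses (SD, n = 7 and 3; -0.08 ± 0.28 SE, edgeR adjusted p = 0.930).

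Lgals3 itself, the gene by which the injured sides were sorted, had 14.3 to 41.8 scaled counts on the contralateral side of strong animals (median 22.1), against 18.7, 9.46 and 9.01 in the weak animals 3, 5 and 10. Animals 7 and 12 of the strong group lay below weak animal 3. The log2 fold change was 1.01 ± 0.42 (SE) and did not pass (edgeR adjusted p = 0.402). In the weak animals the raw counts were 15, 10 and 4, and that of animal 10 lay below its negative control mean of 4.75. Cd68, a lysosomal membrane protein of phagocytes, had 15.8 to 29.4 scaled counts opposite strong responses (median 20.2), against 13.7, 15.1 and 9.01 opposite weak ones. Its groups do not overlap, although animal 12 and weak animal 5 differ by under 1 scaled count (log2 fold change 0.66 ± 0.27 SE, edgeR adjusted p = 0.402). Ctss and Ctsh, the lysosomal proteases cathepsin S and cathepsin H, stood at 0.32 ± 0.10 and 0.36 ± 0.12 on the log2 scale (SE, edgeR adjusted p = 0.264 and 0.308). Ctss had 572 ± 55 and 456 ± 36 scaled counts, and Ctsh 462 ± 51 and 357 ± 52, opposite strong and weak responses (SD, n = 7 and 3). Cd63, a tetraspanin of late endosomes, stood at 0.24 ± 0.10 (SE, edgeR adjusted p = 0.402).

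Lysozyme and lipid genes of phagocytes did not pass either. Lyz2, the lysozyme of myeloid cells, had 95.1 to 158 scaled counts opposite strong responses (median 131), against 198, 113 and 94.6 in weak animals 3, 5 and 10, so the weak animals spanned the whole range of the strong ones. Its log2 fold change was -0.09 ± 0.20 (SE, edgeR adjusted p = 0.916). Abca1, the cholesterol exporter, had 289 to 463 scaled counts opposite strong responses (median 341), against 316, 276 and 290.5 in the weak animals 3, 5 and 10. The groups overlap, and animal 6 alone lies far above the other strong animals, the next of which has 348 (log2 fold change 0.22 ± 0.13 SE, edgeR adjusted p = 0.832). Apoe, the lipid carrier that Abca1 loads with cholesterol, had 8701 ± 1946 scaled counts opposite strong and 9863 ± 1175 opposite weak responses (SD, n = 7 and 3; log2 fold change -0.18 ± 0.17 SE, edgeR adjusted p = 0.909). In the list of phagocytosis, lysosome and lipid genes 8 of 13 on the panel were tested, 0 were called by edgeR and 6 stood above 0, with a median log2 fold change of 0.18. Without adjustment, 3 of the 8 passed at p under 0.05 (Ctss, Cd68 and Lgals3), against 17 of all 193 tested genes (8.81%).

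Leukocyte genes were mixed. Of the microglia and macrophage markers, 4 of 9 on the panel were tested and 0 called by edgeR, with a median log2 fold change of 0.26. At an unadjusted p under 0.05 there was 1 of the 4, against 8.81% of all tested genes. It was Cd68, which is also in the phagocytosis list. Fcer1g, the common gamma chain of Fc receptors, had 83.4 ± 16.3 and 64.9 ± 5.5 scaled counts opposite strong and weak responses (SD, n = 7 and 3; 0.39 ± 0.18 SE, edgeR adjusted p = 0.555). Ptprc, the leukocyte antigen CD45, had 12.6 ± 5.0 and 10.6 ± 3.1 scaled counts (SD, n = 7 and 3; 0.14 ± 0.38 SE, edgeR adjusted p = 0.920). Like Psmb8, it had a contralateral mean under 20 raw counts and reached the minimum through the injured side. Cd37, a leukocyte tetraspanin, stood at 0.68 ± 0.25 on the log2 scale (SE, edgeR adjusted p = 0.370), with 6 of 7 strong animals above all weak ones. Pou2f2, a transcription factor best known from B cells, stood at 0.58 ± 0.20 (SE, edgeR adjusted p = 0.315). Inpp5d, a lipid phosphatase of blood cells and microglia, stood at 0.45 ± 0.29, and Pik3cg, a kinase of leukocyte chemotaxis, at 0.42 ± 0.20 (SE, edgeR adjusted p = 0.832 and 0.555).

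Summed marker levels were compared as measures of cell types. The 7 microglia and macrophage markers on the panel summed to 119 to 157 scaled counts opposite strong responses, against 108 to 117 opposite weak ones. These sums do not overlap (exact permutation test, two-sided, p = 0.025, and 0.300 after Benjamini-Hochberg adjustment over 12 library measures). The markers did not move together. Fcer1g averaged 83.4 and 64.9 scaled counts opposite strong and weak responses, and Cd68 21.5 and 12.6. Ptprc and Itgam were also higher on average opposite strong responses, whereas Csf1r, Cx3cr1 and Trem2 were lower. Among these markers Itgam, Csf1r and Cx3cr1 averaged 2.6, 3.6 and 3.3 raw counts contralaterally, which is below the negative controls. The 4 B cell markers summed to 6.73 to 20.2 scaled counts opposite strong and 8.52 to 47.3 opposite weak responses, and averaged from 2.9 to 4.8 raw counts each. The 5 T and NK cell markers summed to 15.1 to 61.9 and 35.0 to 85.6, and 4 neutrophil markers to 4.92 to 30.2 and 14.2 to 31.5 scaled counts opposite strong and weak responses. The 2 neuronal markers on the panel, Nefl and Egr1, summed to 997 to 1724 and 1284 to 1921. The 5 endothelial markers summed to 167 to 259 and 148 to 177, and 2 fibroblast collagens to 22.4 to 146 and 27.0 to 143 scaled counts. None of the 12 measures passed after adjustment (lowest adjusted p = 0.300). The smallest p that 3 against 7 animals allow is 0.00833. Of 5 defining astrocyte markers only S100b was on the panel, at 1.85 ± 1.47 scaled counts opposite strong and 4.36 ± 4.10 opposite weak responses (SD, n = 7 and 3; exact permutation test, two-sided, p = 0.158). These levels are in the range of the negative controls. Scaling also enlarges background in shallow libraries: counts were divided by 0.444 in weak animal 10 and by 4.27 in strong animal 7. The part of background in S100b and in the lymphocyte and neutrophil sums was not tested. In the wider astrocyte list 3 of 9 genes were on the panel and 2, Clu and Vim, were tested. Their median log2 fold change was 0.44 and edgeR called 0. Both passed at an unadjusted p under 0.05, as did 8.81% of all tested genes, and Vim is also in the matrix list. The panel held 0 of the listed oligodendrocyte and blood markers, so the tissue was not checked against them. The part of microglial content in the Cd74 result was not tested. In tissue RNA, fewer cells of a type and less RNA per cell cannot be told apart.

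Growth factor, matrix and glial genes had small differences. Tgfb1, the cytokine transforming growth factor beta 1, had 49.0 to 65.4 scaled counts opposite strong responses (median 53.8), against 44.9, 38.8 and 45 in the weak animals 3, 5 and 10, and did not overlap (log2 fold change 0.40 ± 0.16 SE, edgeR adjusted p = 0.402). Clu, the secreted chaperone clusterin made by astrocytes, had 8876 to 11140 scaled counts (median 9229), against 8647, 8398 and 7498, and did not overlap either (0.23 ± 0.10 SE, edgeR adjusted p = 0.476). Vim, the intermediate filament of reactive glia and fibroblasts, stood at 0.65 ± 0.30, but its weak animals 3, 5 and 10 had 26.2, 14.2 and 6.76 scaled counts and overlapped with 19.5 to 31.5 in the strong ones (SE, edgeR adjusted p = 0.555). The 6.76 scaled counts of Vim in weak animal 10 correspond to 3 raw counts, below that library's negative control mean of 4.75. Fn1, the matrix protein fibronectin, had 98.6 ± 15.1 and 72.2 ± 11.9 scaled counts opposite strong and weak responses (SD, n = 7 and 3; 0.45 ± 0.16 SE, edgeR adjusted p = 0.370). Col3a1, a fibrillar collagen, varied within both groups, with 74.2 ± 38.1 and 65.2 ± 55.9 scaled counts (SD, n = 7 and 3; edgeR adjusted p = 0.920). A2m, a protease inhibitor, and Anxa1, which limits leukocyte entry, stood at 0.26 ± 0.22 and 0.33 ± 0.39 (SE, edgeR adjusted p = 0.909 each). Single weak animals moved these values. Vim stood at 1.16 without animal 3 and 0.42 without animal 10, Anxa1 at 0.84 without animal 3 and 0.023 without animal 5, and A2m at 0.12 without animal 3 and 0.48 without animal 5. Il13ra1, part of the receptor for interleukin-13, stood at -0.30 ± 0.23 (SE, edgeR adjusted p = 0.909).

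The gene whose groups did not overlap in the other direction was Txnip, an inhibitor of thioredoxin. It had 38.9 to 49.7 scaled counts opposite strong responses (median 43.7), against 64.8, 50.2 and 63.0 in weak animals 3, 5 and 10. The difference did not pass (log2 fold change -0.40 ± 0.15 SE, edgeR adjusted p = 0.390). Animal 7 and weak animal 5 lay within 1 scaled count of each other. In all, 5 genes were higher without overlap (2.59% of the tested genes: Cd74, Psmb8, Cd68, Clu and Tgfb1) and 1 was lower (0.518%). Both the genes and the balance depend on the scaling. With TMM factors 4 genes were higher and 2 lower without overlap, after background subtraction 5 and 0, with all 20 housekeeping genes 6 and 0, and with median centring 3 and 5. The 5 lower under median centring were Hspb2, Mpped1, Ncam1, Txnip and Tyk2. Of 5 scalings examined, Cd74 and Psmb8 were without overlap in each, Tgfb1 in 4, Txnip in 3, and Cd68 and Clu only with the 17 housekeeping genes. Other large negative log2 fold changes were -0.60 ± 0.37 for Cdh1 (E-cadherin), -0.50 ± 0.24 for Il12a (a subunit of interleukin-12) and -0.46 ± 0.25 for Tyk2 (a kinase of cytokine receptors), none of which passed (SE, edgeR adjusted p = 0.832, 0.555 and 0.796). Their contralateral raw counts averaged 15.1, 28.6 and 21.9. The 42.8 scaled counts of Il12a in weak animal 10 correspond to 19 raw counts. Xbp1, a transcription factor of the unfolded protein response, stood at 0.29 ± 0.11 (SE, edgeR adjusted p = 0.402).

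Other gene lists were read against a median of 0.06 over the 193 genes. All 5 tested interferon response genes stood above 0, with a median log2 fold change of 0.12 and 0 called, led by Ifitm2 (0.37 ± 0.23 SE, edgeR adjusted p = 0.832) and Ifi44 (0.31 ± 0.22 SE, edgeR adjusted p = 0.909), both interferon-induced. Of 11 tested Toll-like receptor and NF-kB genes 0 were called, and the median was 0.11. The 6 tested endothelial and vascular genes had a median of 0.07, led by the angiopoietin receptors Tie1 (0.39 ± 0.19 SE, edgeR adjusted p = 0.582) and Tek (0.27 ± 0.17 SE, edgeR adjusted p = 0.832). Medians were 0.18 for 8 growth factor and repair genes, 0.15 for 5 matrix genes, 0.08 for 4 autophagy genes, 0.04 for 11 stress kinases and 0.01 for 5 cytokine and receptor genes. They were -0.14 for 4 cell death genes and -0.15 for 4 chemokine genes. In each of these lists edgeR called 0 genes, and at an unadjusted p under 0.05 they held 4 (Tgfb1, Fn1, Vim and Pik3cg). Among all 193 tested genes there were 17 (8.81%).

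None of the tested neuronal and activity genes was called by edgeR, and 0 passed at an unadjusted p under 0.05. Of 6 tested immediate early genes, which neurons switch on with activity, 4 stood below 0 and 2 (Jun and Ptgs2) at 0.0051 and 0.0096, with a median log2 fold change of -0.17. Egr1 had 783 ± 174 and 890 ± 196 scaled counts opposite strong and weak responses (SD, n = 7 and 3; -0.18 ± 0.19 SE, edgeR adjusted p = 0.909). Egr3 and Fos stood at -0.16 ± 0.14 and -0.22 ± 0.31 (SE, edgeR adjusted p = 0.909 each). The 4 tested neuronal and synaptic genes had a median of -0.10. Nefl, the light chain of neurofilaments, had 666 ± 104 and 775 ± 140 scaled counts (SD, n = 7 and 3; -0.22 ± 0.14 SE, edgeR adjusted p = 0.832).

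**Figure D3:**
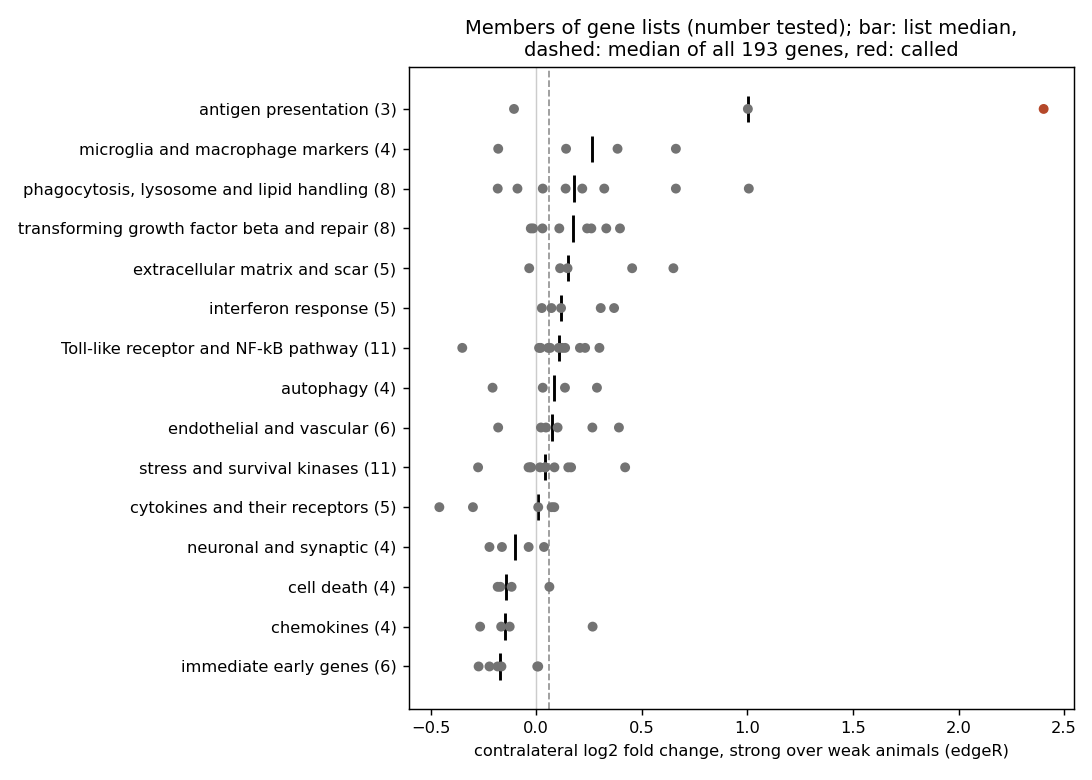
Contralateral log2 fold changes, strong over weak animals (horizontal axis), of the tested members of 15 gene lists with at least 3 tested genes; black bars are list medians and the dashed line is the median of all 193 genes. Cd74 in the antigen presentation list is the single called gene (red), and the list medians run from -0.17 to 1.0. The highest median, that of the 3 antigen presentation genes, is the value of Psmb8. The class I gene H2-K1, at -0.20, is not in that list.

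The contralateral values were set beside those of the injured side, and differences between genes in this respect were not tested. For Cd74 the strong-minus-weak difference in mean log2(scaled count + 1) was 2.30 contralaterally and 2.88 ipsilaterally. For C4b it was 1.26 contralaterally and 3.24 ipsilaterally, for Psmb8 0.92 and 1.89, for Lgals3 1.02 and 4.30, for Cd68 0.73 and 3.12, and for Abca1 0.21 and 1.65. The ipsilateral values come from the libraries that formed the groups and are descriptions. All ipsilateral libraries carry a different set label in their column names from all contralateral ones. Side and set therefore cannot be told apart where levels of the 2 sides are compared. The geometric mean of the positive control probes was 544 to 715 counts ipsilaterally and 342 to 540 contralaterally. In 6 of 7 strong animals contralateral Cd74 exceeded the 35.7 to 89.2 scaled counts of all 3 injured hemispheres of weak animals, and it did not in animal 4. In animal 8 both sides had nearly the same level, 215 scaled counts on the injured and 213 on the uninjured side. The same count was 5 of 7 for C4b, 4 for Vim, 3 for Lgals3, Psmb8 and Clu, 2 for Cd68, 1 for Abca1 and 0 for Tgfb1 and Txnip.

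**Figure D4:**
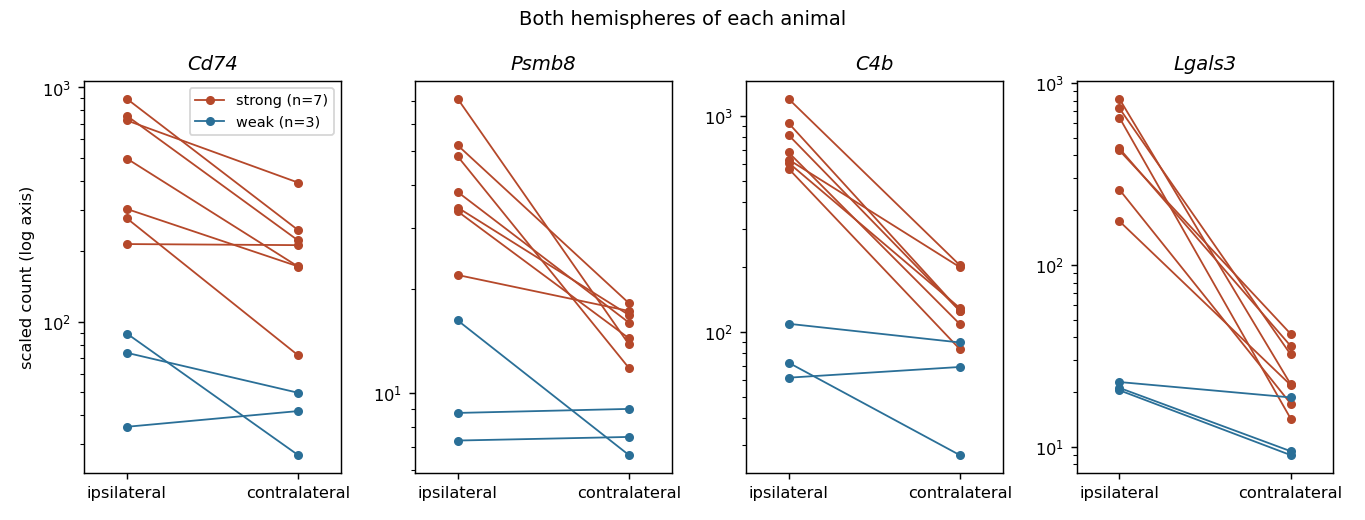
Scaled counts (log axes) of Cd74, Psmb8, C4b and Lgals3 on the ipsilateral and contralateral sides, joined for each animal, in red for the 7 strong and blue for the 3 weak animals. Contralateral Cd74 lies between 72.0 and 393 in strong and between 27.0 and 49.8 in weak animals, whereas contralateral Lgals3 of both groups lies between 9.01 and 41.8.

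Over all tested genes the 2 sides were related loosely. The strong-minus-weak differences of the contralateral and ipsilateral sides correlated across the 193 genes with Pearson's r = 0.53 and Spearman's rho = 0.33, and with r = 0.51 without Cd74. Genes are not independent replicates, and both sides come from the same animals, so this is a description. Of the 39 genes whose ipsilateral difference exceeded 1 on the log2 scale, 28 had a contralateral difference above 0, against 92 of the remaining 154 genes. The median contralateral difference of the 39 genes was 0.22, beside a median ipsilateral difference of 1.67, and it was 0.04 for the remaining 154. Of the 39 genes, 3 (Cd74, C4b and Lgals3) exceeded 1 contralaterally. Genes with large ipsilateral and small contralateral differences included A2m (0.33 contralaterally, 3.27 ipsilaterally), Anxa1 (0.36 and 3.17), Ptprc (0.16 and 2.35) and Lyz2 (-0.02 and 2.04). Contralateral Ptprc averaged under 20 raw counts, where background can narrow a difference.

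**Figure D5:**
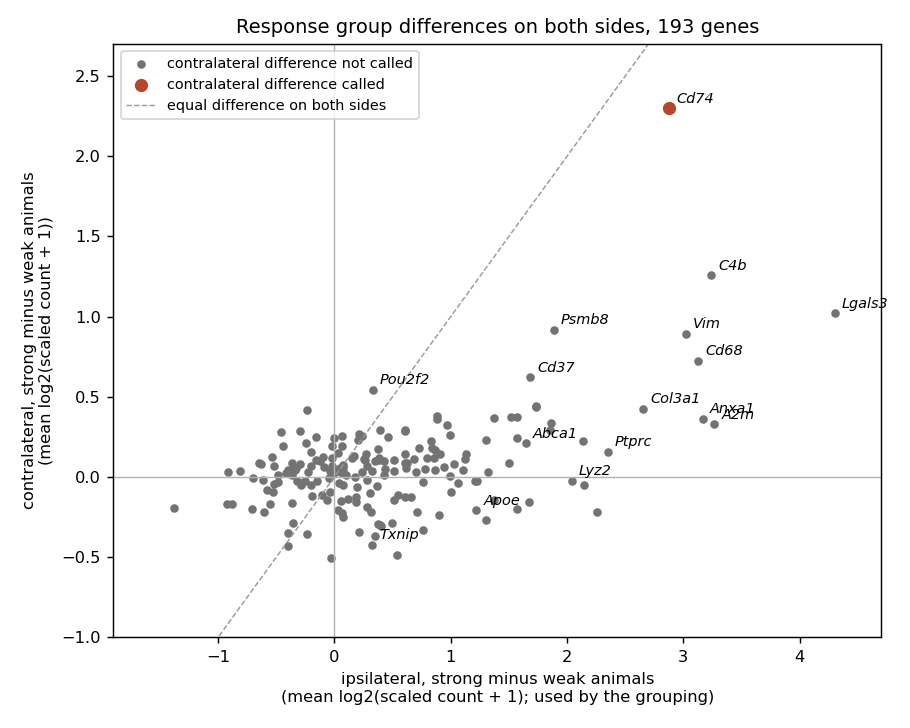
Difference between strong and weak animals in mean log2(scaled count + 1) on the contralateral side (vertical axis) against that on the ipsilateral side (horizontal axis) for 193 genes; the dashed line marks equal differences. Cd74 (red) lies nearest that line among the genes with an ipsilateral difference above 1, at 2.30 against 2.88.

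Within the 7 strong animals, the contralateral levels of Lgals3, C4b and Abca1 were set against the size of the ipsilateral ratio, since the 2 response groups form separate clusters. On log2 scales Pearson's r was 0.21 for Lgals3, 0.51 for C4b and 0.50 for Abca1, and Spearman's rho was 0.18, 0.43 and 0.36. None of these 3 relations passed (exact permutation p = 0.626, 0.244 and 0.272 for r and 0.713, 0.354 and 0.444 for rho, two-sided, n = 7). After Benjamini-Hochberg adjustment over the 3 relations, p for r was 0.626, 0.408 and 0.408. Without animals 2 and 12, which lie farthest from the median ratio, r was -0.36 for Lgals3, 0.33 for C4b and 0.31 for Abca1. The value for Abca1 rests on single animals: r was 0.84 without animal 8 (exact permutation p = 0.025, adjusted p = 0.075, n = 6) and 0.16 without animal 6. For Lgals3, r ran from 0.046 without animal 12 to 0.46 without animal 7, and for C4b from 0.31 without animal 6 to 0.68 without animal 2.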

How the data were processed

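The authors deposited a matrix of counts, whole numbers, 1 per probe and library. Per the series' design text, nSolver was used, in a version not named there. The design text describes normalization, but library totals differ 9.29-fold among contralateral libraries and negative controls are not subtracted, so the values were treated as raw counts. A second deposited table holds the same counts in 20 of 20 columns under other animal numbers, with all 10 pairs of hemispheres kept, so the groups do not depend on the numbering.

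Counts were divided by a library factor, the geometric mean of 17 housekeeping genes (of 20, those averaging 20 counts or more). The 20 housekeeping rows were recognised as a separate alphabetical block of the matrix. The 10 contralateral libraries were compared with edgeR 4.0.16 (glmQLFit, glmQLFTest) in R 4.3.3, strong over weak, two-sided, Benjamini-Hochberg over 193 genes, called at adjusted p under 0.05. The SE is the log2 fold change divided by the square root of F. DESeq2 1.42.0 and limma 3.58.1 were alternatives. The fit was also run on simulated counts with the same dispersion for every gene, so that run does not bear on the call of Cd74. Members, lists and tests were chosen with earlier results of these data known. Genes named are Lgals3, C4b and Abca1, called genes, the 8 largest differences each way, up to 2 members of each list by p and a fixed list; not all are printed. Genes beyond this rule (Xbp1, Cd63, Inpp5d and others) were named after their values were seen. Gene names are those of the panel. P-values of the group comparisons weigh a difference against the spread between these animals and do not measure that spread.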

Additional observations from a re-analysis of the deposited data

Results flagged for a closer look

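In the strong animals, 52 gene levels and library measures were checked for a library far from the other 6. By chance about 1 in 20 such groups is picked out, 2.6 of 52, and 3 were. Abca1 had 463 scaled counts in the contralateral library of animal 6, against 289 to 348 in the other 6 (gap to the next library 0.604 of the whole log2 range). The summed endothelial markers were highest in the same library, at 259 scaled counts against 167 to 200 (gap 0.636 of the range in scaled counts). Ctss was lowest in animal 12, at 462 scaled counts against 555 to 637 (gap 0.572 of the log2 range).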

How the results depend on the processing

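Of the 16 alternatives other than leaving out an animal, 13 kept the call of Cd74, at log2 fold changes of 2.02 to 2.55. The call was lost with limma-voom, chosen after seeing the data, at 2.34 (adjusted p = 0.203, contralateral libraries) and 2.33 (adjusted p = 0.371, all 20 libraries), and in the same model with the animal as a random replicate block (2.34, adjusted p = 0.380). Each of these 3 called 0 genes. A fixed block was not possible, since strong and weak groups share no animal, and the estimated correlation within animals was -0.014. Background subtraction called 2 genes (Psmb8 was the other), as did DESeq2's test and the fit without a count minimum (C4b was the other). Leaving out 1 animal gave 0 to 1 called genes, and Cd74 from 2.17 to 2.58. Limits of 0.05 or 0.2 on the ratio, and housekeeping-scaled Lgals3, gave the same groups. Over all tested genes the median log2 fold change stood at 0.06 under housekeeping scaling, 0.03 with TMM, -0.08 with median centring, 0.15 with all 20 housekeeping genes and -0.36 with no count minimum.

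Signs of differences that did not pass changed for Lyz2 (0.017 with all 20 housekeeping genes), C3ar1 (0.035 there and 0.25 after background subtraction), Psmb9 (0.10 after background subtraction, 0.19 with strong libraries under 100000 counts) and Apoe (0.011 with those libraries). The cause was not tested. With 1 animal left out, log2 fold changes ran from -0.015 to 0.48 for Ptprc, -0.26 to 0.30 for Lyz2, -0.28 to 0.055 for C3ar1, -0.21 to 0.95 for Col3a1 and -0.33 to 0.076 for Psmb9. Without animals 2 and 12, r for Lgals3 was -0.36. With 1 animal left out, strong minus weak ran from -44.6 to 4.97 for the positive control mean, -22.7 to 2.54 for summed T and NK, -17.3 to 2.07 for B cell and -17.7 to 40.5 for fibroblast markers. In contralateral animal 10, 26 of 193 tested genes lay at or under that library's highest negative control, which limits low genes there.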

Other observations

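Other class II genes of the panel lay under the count minimum and were looked at after Cd74 was known. H2-Ab1, a class II beta chain, had 12.2 ± 4.0 scaled counts opposite strong and 8.51 ± 2.37 opposite weak responses, and H2-Eb1, another beta chain, had 11 ± 4.1 and 8.83 ± 2.25 (SD, n = 7 and 3). H2-Aa, an alpha chain, had 10.2 ± 5.9 and 19.6 ± 14.2 scaled counts, and Ciita, the transactivator of class II genes, had 3.8 ± 3.12 and 1.80 ± 0.51 (SD, n = 7 and 3). All 4 overlapped between the groups, and their contralateral mean raw counts were 17.2, 14.3, 12.5 and 3.1. The class II genes H2-Dma and H2-DMb1 had 8.17 ± 3.93 and 3.29 ± 2.02 scaled counts opposite strong responses. Opposite weak ones they had 10.6 ± 5.0 and 2.96 ± 1.37 (SD, n = 7 and 3). They overlapped too, at 10.2 and 3.9 raw counts. All these raw means lie under 18, the highest negative control count of any library, and that of Ciita lies below the negative control means. These genes were not tested with the minimum in place. Trem2, a lipid receptor of microglia, had 12 ± 4.6 and 12.5 ± 2.9 scaled counts, and C3, the central complement component, 8.28 ± 2.14 and 6.72 ± 2.88 (SD, n = 7 and 3).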
